A study of Mus musculus with 8 samples.

Results

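The Cyp4 fatty acid omega-hydroxylases are cytochrome P450 enzymes that place a hydroxyl group on the last carbon of a fatty acid. Their messenger RNA was followed here in the livers of mice that had lost Smoothened (Smo), an obligatory part of the Hedgehog pathway, in hepatocytes. The members were taken from the files by gene symbol, from a list drawn up with earlier results of these data known, and were Cyp4a10, Cyp4a14, Cyp4a12a, Cyp4a31, Cyp4a32, Cyp4f14, Cyp4f15, and Cyp4v3, 8 of the 25239 symbols in the count files. All 8 passed the filter on low counts and were among the 12977 genes tested, and another 12 Cyp4 genes in the files were read beside them.

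Bulk RNA was sequenced from whole livers of male, adult Smo fl/fl mice (C57Bl6/J) after 6 weeks on a choline-deficient, amino acid–restricted diet rich in fat (CDA-HFD). In the last week, 4 mice received AAV8-TBG-Luciferase (control, labelled Smo-Luc and WT) and 4 received AAV8-TBG-Cre Recombinase (Smo-KO, labelled Smo-Cre). All 8 mice therefore carried the floxed Smo alleles, the diet, and an AAV8 vector, and no chow-fed liver was part of the series. The TBG promoter drives Cre in hepatocytes, so other liver cells were meant to keep Smo. The groups differed in the vector's cargo, Cre or luciferase, and the livers were taken 1 week after it was given. Each liver gave between 8203299 and 9999732 reads on genes, and the groups did not differ detectably in this total (two-sided exact permutation p = 0.257). In whole-liver RNA, fewer cells of a type and less RNA per cell cannot be told apart.

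Omega-hydroxylation is a minor route of fatty acid disposal in the fed liver and is known to widen when β-oxidation is overloaded, as in fasting, diabetes, or steatosis. Cyp4 enzymes in the endoplasmic reticulum, supplied with electrons by P450 oxidoreductase, make omega-hydroxy fatty acids, alcohol and aldehyde dehydrogenases oxidise these to dicarboxylic acids, and peroxisomes shorten the dicarboxylic acids. The mouse Cyp4a10 and Cyp4a14 genes are classical targets of the nuclear receptor PPAR alpha, Cyp4a12a is male-biased and acts on arachidonic acid, and the Cyp4f enzymes inactivate leukotrienes and oxidise long-chain fatty acids and vitamin side chains.

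The 5 Cyp4a members lie side by side on chromosome 4 (GRCm38, GENCODE M21 annotation). Cyp4a12a occupies chr4:115299046-115332815 on the plus strand, Cyp4a14 chr4:115486200-115496142 on the minus strand, Cyp4a10 chr4:115518264-115533649 on the plus strand, Cyp4a31 chr4:115563649-115579015 on the plus strand, and Cyp4a32 chr4:115600969-115621602 on the plus strand. Cyp4a12b, a near copy of Cyp4a12a that is not among the members, lies between Cyp4a12a and Cyp4a14 at chr4:115411624-115439034 on the plus strand. Cyp4a30b, also not a member, lies between the same genes at chr4:115452604-115471062 on the plus strand. Cyp4f15 (chr17:32685627-32703352, plus strand) and Cyp4f14 (chr17:32905070-32917342, minus strand) share a Cyp4f cluster, and Cyp4v3 stands alone at chr8:45304944-45333216 on the minus strand.

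How far reads can tell the neighbours apart depends on their sequence. Over 1527 coding bases, Cyp4a10 and Cyp4a32 differed at 43 positions (97.2% identity), Cyp4a10 and Cyp4a31 at 52 (96.6%), and Cyp4a31 and Cyp4a32 at 61 (96.0%). Cyp4a12a and Cyp4a12b differed at 23 of 1524 bases (98.5% identity), whereas Cyp4a10 shared 76.8% with Cyp4a14 and 80.3% with Cyp4a12a. The 60 coding bases in which Cyp4a10, Cyp4a31, and Cyp4a32 differ most, coding bases 200 to 259, are shown because a read over them can be placed. They lie in an exon at chr4:115519640-115519699 in Cyp4a10, chr4:115565020-115565079 in Cyp4a31, and chr4:115602270-115602329 in Cyp4a32, all on the plus strand, and capitals mark bases that differ from Cyp4a10.
Cyp4a10: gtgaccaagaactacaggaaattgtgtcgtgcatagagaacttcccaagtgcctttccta
Cyp4a31: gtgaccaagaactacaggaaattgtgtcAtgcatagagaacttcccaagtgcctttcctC
Cyp4a32: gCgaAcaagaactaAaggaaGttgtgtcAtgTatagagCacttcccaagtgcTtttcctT
Even here Cyp4a31 differed from Cyp4a10 at 2 bases, and Cyp4a32 differed at 9.

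The same comparison for the male-biased pair, coding bases 624 to 683, spans an intron at chr4:115326309-115326681 in Cyp4a12a and chr4:115432561-115432934 in Cyp4a12b, both on the plus strand. Capitals mark the 4 bases that differ from Cyp4a12a, the most in any stretch of this length.
Cyp4a12a: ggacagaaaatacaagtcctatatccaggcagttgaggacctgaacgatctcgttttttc
Cyp4a12b: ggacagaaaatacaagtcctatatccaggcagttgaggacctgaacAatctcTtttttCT
The catalytic core is held by the whole family and is shown for that reason. It is the run of 30 coding bases around the cysteine codon (tgc, or tgt in Cyp4v3) whose product binds the haem iron, with capitals where a member differs from Cyp4a10. An intron interrupts it in all 8 members, at chr4:115529502-115532543 in Cyp4a10, chr4:115574950-115577948 in Cyp4a31, chr4:115614880-115621446 in Cyp4a32, and chr4:115328986-115331846 in Cyp4a12a (plus strand), and at chr4:115487299-115489805 in Cyp4a14 (minus strand). In the remaining members it lies at chr17:32905666-32906065 in Cyp4f14 (minus strand), chr17:32702398-32702801 in Cyp4f15 (plus strand), and chr8:45307107-45308407 in Cyp4v3 (minus strand).
Cyp4a10, Cyp4a31, and Cyp4a32: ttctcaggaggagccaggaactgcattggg
Cyp4a12a: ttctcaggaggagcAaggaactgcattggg
Cyp4a14: ttctcaggaggaTcAaggaactgcattggg
Cyp4f14: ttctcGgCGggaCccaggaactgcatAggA
Cyp4f15: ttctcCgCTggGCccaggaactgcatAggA
Cyp4v3: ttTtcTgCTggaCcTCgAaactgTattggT
Cyp4a10, Cyp4a31, and Cyp4a32 were identical in this run, while Cyp4f14, Cyp4f15, and Cyp4v3 differed from them at 6, 7, and 10 bases.

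Across whole annotated transcripts, 100% of the windows of 100 bases in Cyp4a14, Cyp4f14, and Cyp4f15 occurred in no other gene. The share was 94.2% for Cyp4v3, which has 313 exon bases in common with the predicted gene Gm45753, 91.8% for Cyp4a31, 87.3% for Cyp4a10, 79.9% for Cyp4a32, and 64.2% for Cyp4a12a. At 150 bases, Cyp4a10, Cyp4a31, and Cyp4a32 reached 95.7%, 95.8%, and 92.0%, Cyp4v3 95.5%, and Cyp4a12a 74.4%. The values of these genes, Cyp4v3 included, are therefore uncertain to the extent that the counting divided or set aside reads that fit more than 1 gene, and Cyp4a14, Cyp4f14, and Cyp4f15 had no such windows at 100 bases.

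**Figure D1:**
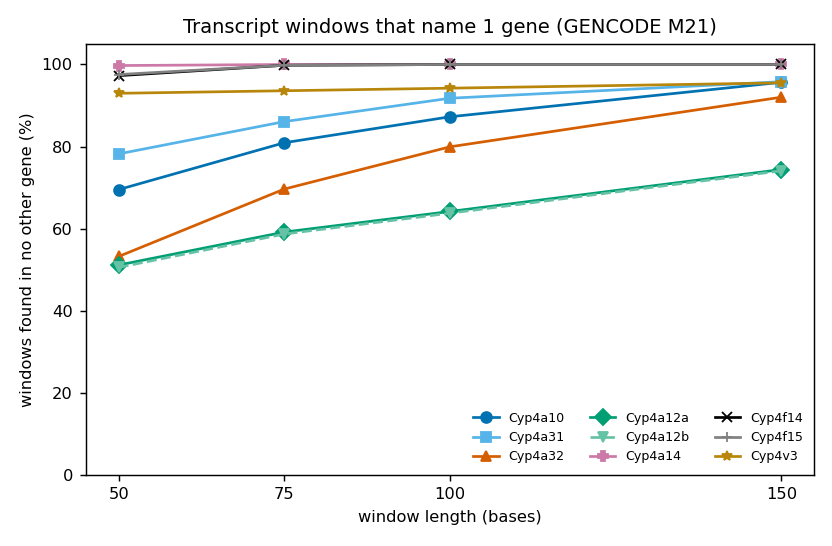
The share of transcript windows that occur in no other gene (y axis, percent) is plotted against window length (x axis, bases) for the 8 members and Cyp4a12b, from the GENCODE M21 annotation. Cyp4a12a and Cyp4a12b stay lowest, at 64.2% and 63.8% for windows of 100 bases, and Cyp4a32 climbs from 53.2% at 50 bases to 92.0% at 150.

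The deleted gene was read first as a check of the labels. Smo measured 8.17, 8.49, 8.74, and 8.21 CPM in the control livers and 5.67, 3.93, 4.27, and 4.37 CPM in the Smo-KO livers, where CPM are reads per 1e6 reads after TMM scaling and livers are always given in the order of mice 1 to 4. Every Smo-KO liver lay below every control liver, at 0.543 of the control mean (log2 fold change -0.88 ± 0.16 SE, edgeR adjusted p = 0.0957, exact permutation p = 0.0286, the smallest that 4 livers against 4 can give). The count takes in all exons of Smo and all cell types of the liver.

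Among all 12977 genes, edgeR's quasi-likelihood test called 0 genes (0%) at an adjusted p under 0.05, with a lowest adjusted p of 0.0785, and DESeq2 called 163 of 11967 (1.36%). At an unadjusted p under 0.05, edgeR gave 869 genes that were higher in Smo-KO livers (6.7%) and 928 that were lower (7.15%). The groups did not overlap in 393 genes that were higher (3.03%) and 563 that were lower (4.34%). No Cyp4 gene passed the adjusted threshold, so the differences below are given as values. Of the 8 members, 7 were higher on average in Smo-KO livers and 1 was lower, where 49.9% of all genes tested were higher. An unadjusted p under 0.05 was reached by 4 members, Cyp4a10, Cyp4a14, Cyp4a32, and Cyp4f15, all of them higher, beside the 6.7% of all genes, and 1 member, Cyp4a32, had groups that did not overlap, beside 3.03%. Their median log2 fold change was 0.37, against -0.000845 over all genes tested, of which 10% lay above 0.28.

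Cyp4a32, a close relative of Cyp4a10 in the same cluster, showed the largest difference of the 8. It measured 124, 87.3, 56.4, and 126 CPM in control mice and 147, 169.8, 431, and 256 CPM in Smo-KO mice, from 568 to 3537 reads a liver. The lowest Smo-KO liver stood above the highest control liver, although mouse 3 of the Smo-KO group was far above the rest. The mean was 98.3 ± 33.0 CPM in the control group and 251 ± 129 CPM in the Smo-KO group (SD, n = 4 each), a ratio of 2.55. On the log2 scale the difference was 1.35 ± 0.32 (SE), with an edgeR unadjusted p of 0.000965 that ranked 87th of all genes, an adjusted p of 0.140, and an exact permutation p of 0.0286. By DESeq2 the adjusted p was 0.0901. Leaving out any 1 liver kept the difference between 0.96 (without Smo-KO mouse 3) and 1.54 (without Smo-KO mouse 1), where the edgeR adjusted p ran from 0.0470 to 0.261.

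Cyp4a10 and Cyp4a14, the PPAR alpha–responsive omega-hydroxylases of medium- and long-chain fatty acids, were alike in pattern. Cyp4a10 measured 109.7, 116, 65.4, and 119.7 CPM in control mice and 132, 98.8, 262, and 132 CPM in Smo-KO mice. Cyp4a14 measured 85.4, 85.7, 80.1, and 96.9 CPM in control mice and 108, 76.7, 199, and 127 CPM in Smo-KO mice. For both genes, 3 of 4 Smo-KO livers exceeded the highest control liver, and mouse 2 of the Smo-KO group lay within or below the control range. The means were 103 ± 25.1 and 156 ± 72.4 CPM for Cyp4a10 (SD, n = 4) and 87.0 ± 7.09 and 128 ± 51.9 CPM for Cyp4a14 (SD, n = 4). The differences were 0.61 ± 0.26 for Cyp4a10 (SE, edgeR adjusted p = 0.331, exact permutation p = 0.171) and 0.55 ± 0.22 for Cyp4a14 (SE, edgeR adjusted p = 0.287, exact permutation p = 0.143). Smo-KO mouse 3 carried much of both, since without it they were 0.24 and 0.25.

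Cyp4a31, the third of the Cyp4a10-like genes, was sparse, at 32 to 80 reads a liver. It measured 4.42, 4.61, 3.18, and 5.54 CPM in control mice and 4.95, 3.38, 9.76, and 4.26 CPM in Smo-KO mice. Apart from Smo-KO mouse 3 the groups covered the same range, and the difference of 0.32 ± 0.30 (log2, SE, edgeR adjusted p = 0.679) was -0.078 without that liver.

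Since reads could have been exchanged among the 3 near copies, their sum was also formed. Cyp4a10, Cyp4a31, and Cyp4a32 together measured 238, 208, 125, and 251 CPM in control mice and 284, 272, 703, and 393 CPM in Smo-KO mice. The sums did not overlap between groups, and the ratio of their means was 2.01 (205 ± 56.6 and 413 ± 201 CPM, SD, n = 4). Within the sum, the balance of counted reads between genes was also read, and was not tested. Reads of Cyp4a32 over those of Cyp4a10 were 1.13, 0.756, 0.863, and 1.05 in control mice and 1.11, 1.72, 1.64, and 1.94 in Smo-KO mice, so that 3 Smo-KO livers lay above all control livers and mouse 1 did not. The Cyp4a31 to Cyp4a10 ratio stayed between 0.0322 and 0.0486 in all 8 livers, and each Smo-KO value was below all control values. For Cyp4a14 over Cyp4a10, which are far enough apart in sequence to be counted separately, the ratio was 0.779, 0.741, 1.22, and 0.810 in control mice and 0.819, 0.776, 0.759, and 0.957 in Smo-KO mice.

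**Figure D2:**
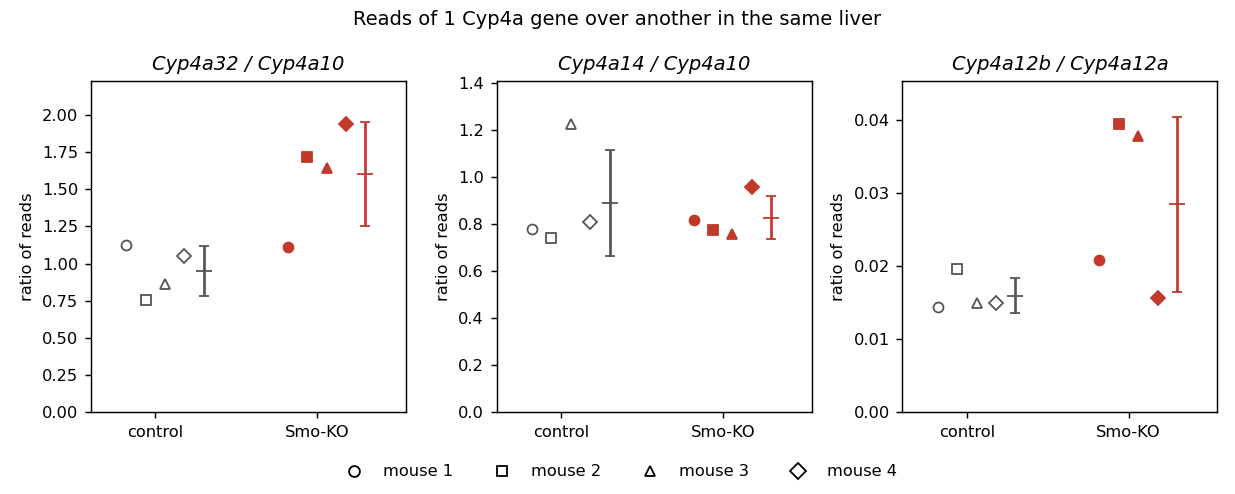
Reads of 1 Cyp4a gene divided by reads of another in the same liver (y axes, ratio from 0) are plotted for 4 control and 4 Smo-KO livers, with the mean and SD beside the points and 1 marker shape per mouse number. Cyp4a32 over Cyp4a10 averages 0.949 over control and 1.60 over Smo-KO livers, while Cyp4a14 over Cyp4a10 overlaps fully and has 1 high control liver at 1.22.

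Cyp4a12a, the male-biased hydroxylase of arachidonic acid, was spread widely over the Smo-KO livers. Control mice had 363, 331, 259.6, and 296 CPM, and Smo-KO mice had 168, 404, 522, and 306 CPM. Smo-KO mouse 1 was the lowest of all 8 livers and mouse 3 the highest, so the Smo-KO values bracketed the control values. The mean was 312 ± 44.5 CPM in control and 349.9 ± 150.1 CPM in Smo-KO livers (SD, n = 4; log2 difference 0.16 ± 0.25 SE, edgeR adjusted p = 0.813). Its sign depended on single livers, being -0.095 without Smo-KO mouse 3 and 0.40 without Smo-KO mouse 1. The near copy Cyp4a12b measured 5.22, 6.50, 3.88, and 4.45 CPM in control mice and 3.51, 15.9, 19.8, and 4.80 CPM in Smo-KO mice. Here Smo-KO mice 2 and 3 were high and mouse 4 lay in the control range, while mouse 1 was the lowest of the 8 livers, with a log2 difference of 1.12 ± 0.45 (SE, edgeR adjusted p = 0.303, exact permutation p = 0.371). The sum of both genes was 317 CPM in control and 361 CPM in Smo-KO livers, a ratio of 1.14.

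The Cyp4f members had differences of opposite sign. Cyp4f15, which hydroxylates leukotriene B4, measured 175, 128, 95.5, and 136 CPM in control mice and 154, 184, 163, and 214 CPM in Smo-KO mice. All 4 Smo-KO livers were above the control mean of 134 ± 32.7 CPM (SD, n = 4), with their own mean at 179 ± 26.3 CPM (SD, n = 4), but 2 of them lay below control mouse 1. The log2 difference of 0.42 ± 0.16 (SE) had an edgeR unadjusted p of 0.0206, an adjusted p of 0.281, and an exact permutation p of 0.0857, and it held between 0.29 and 0.58 with any 1 liver left out. Cyp4f14, which acts on leukotriene B4 and on the side chain of vitamin E, was the only member with a lower mean. It measured 243, 179, 219, and 171 CPM in control mice and 157, 204, 167, and 177 CPM in Smo-KO mice. The groups overlapped, and the log2 difference was -0.21 ± 0.12 (SE, edgeR adjusted p = 0.485, exact permutation p = 0.2), between -0.28 and -0.11 with any 1 liver left out.

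Cyp4v3, the mouse counterpart of the CYP4V2 enzyme mutated in Bietti crystalline dystrophy, varied least of the members over control livers. It measured 390.3, 409, 377, and 393 CPM in control mice and 364, 485, 388, and 387 CPM in Smo-KO mice. Smo-KO mouse 2 was the highest and mouse 1 the lowest of the 8 livers, and the other Smo-KO livers lay within the control range. The difference of 0.049 ± 0.099 (log2, SE, edgeR adjusted p = 0.862) was -0.048 without Smo-KO mouse 2.

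**Figure D3:**
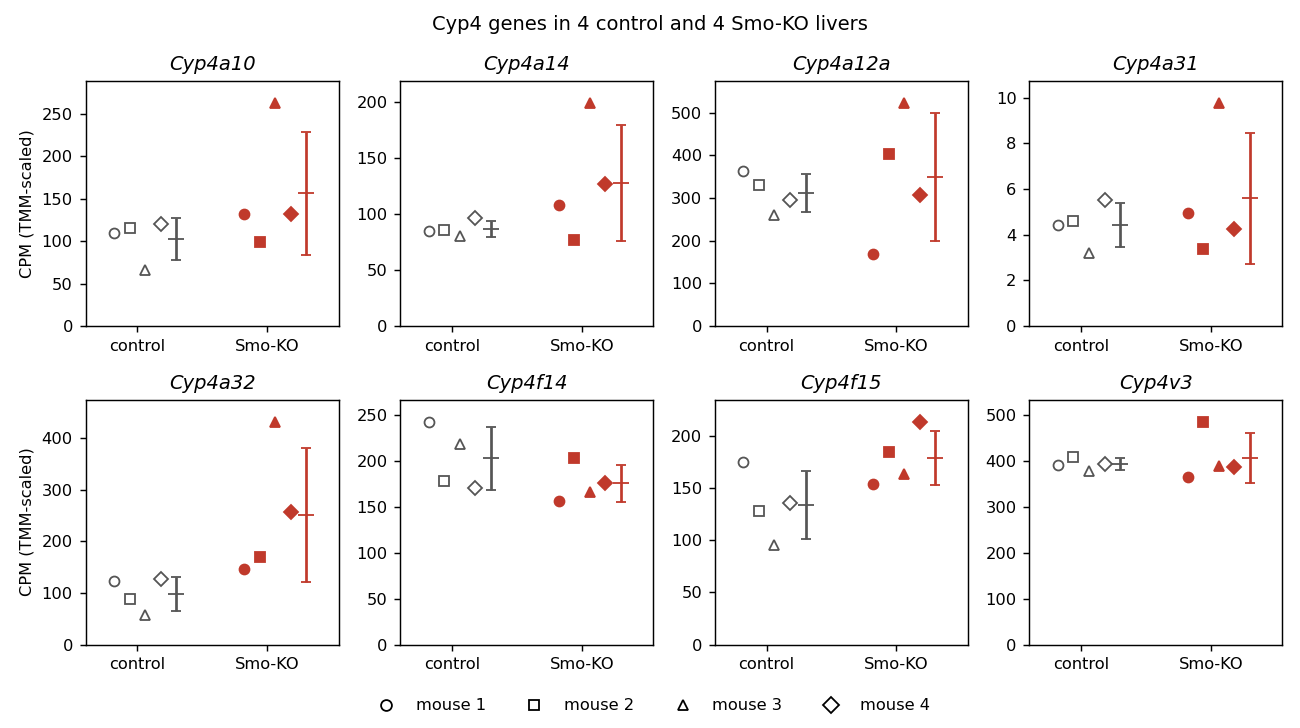
CPM after TMM scaling (y axes, from 0) of each of the 8 members in 4 control livers (open markers) and 4 Smo-KO livers (filled markers), with the mean and SD beside the points and 1 marker shape per mouse number. Cyp4a32 is the only panel in which the groups do not overlap, and Smo-KO mouse 3 is the highest liver in all 5 Cyp4a panels.

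Smo-KO mouse 3 had the highest value of every Cyp4a member and of Cyp4a12b. It was also the library with the fewest reads on genes (8203299) and the largest share of reads outside annotated genes (9.68%, against means of 8.33 ± 0.743% for the control and 9.23 ± 0.330% for the Smo-KO group, SD, n = 4). The part of these library properties in the result was not tested. Without this liver, 2 members kept an unadjusted p under 0.05 by edgeR, Cyp4a32 and Cyp4f15, beside 4.45% of all genes that were higher at that p. In the same fit, 5 of 8 members stayed higher in Smo-KO livers. Leaving out control mouse 3, which had the lowest Cyp4a10, Cyp4a31, Cyp4a32, and Cyp4f15 of the 8 livers, left Cyp4a32 as the 1 member at that p. Of all genes, 5.19% were higher at that p without control mouse 3. All Cyp4a genes together measured 610.1 ± 97.7 CPM in control and 902 ± 380 CPM in Smo-KO livers (SD, n = 4; ratio 1.48), with overlapping groups, and the 8 members took 0.133 ± 0.0110% and 0.165 ± 0.0367% of the reads on genes.

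**Figure D4:**
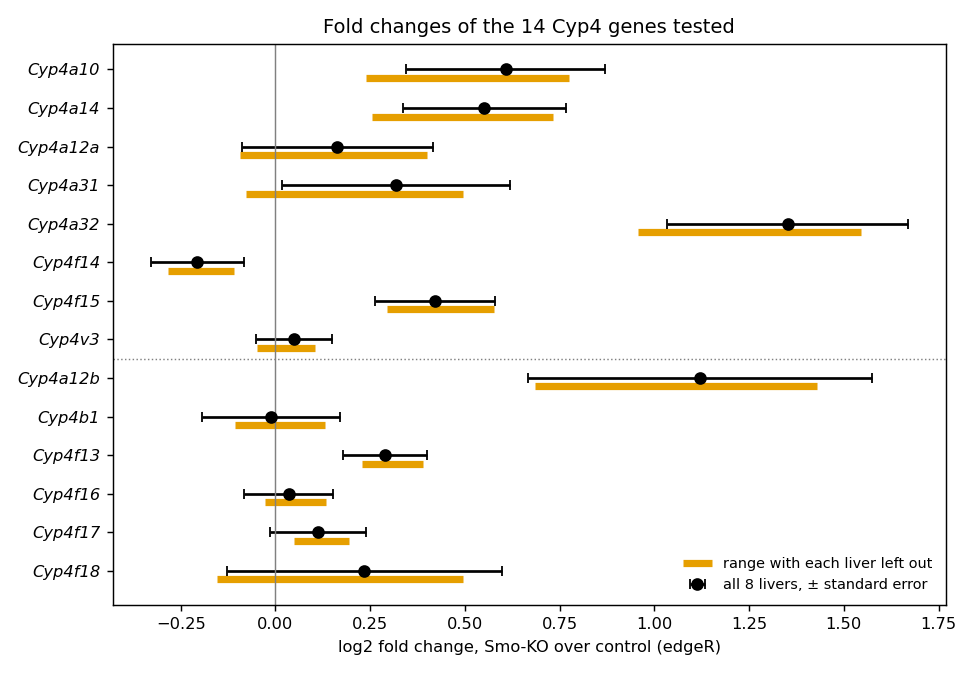
Log2 fold changes of Smo-KO over control from edgeR (x axis) are plotted for the 8 members (above the dotted line) and 6 other Cyp4 genes (below it). Points and thin bars give the value and its SE with all 8 livers, thick bars span the values obtained with each liver left out. Among the members, the thick bars of Cyp4a12a, Cyp4a31, and Cyp4v3 cross 0, as do those of Cyp4b1, Cyp4f16, and Cyp4f18 below the line, and Cyp4a32 runs from 0.96 to 1.54.

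Of the 12 other Cyp4 genes, 6 were too sparse to test, with at most 8 reads in any liver (Cyp4a29, Cyp4a30b, Cyp4f37, Cyp4f39, Cyp4f40, and Cyp4x1). Of the 6 tested, 2 had an unadjusted p under 0.05, both higher in Smo-KO livers, Cyp4a12b and Cyp4f13. That count was 0 without control mouse 3 and 1 by DESeq2 or without control mouse 4 or Smo-KO mouse 2, 3, or 4. Over all genes, the share higher at that p was 5.19% without control mouse 3 and 4.45% to 6.47% in the other fits named. Cyp4f13, a neighbour of Cyp4f14, averaged 59.7 ± 8.62 CPM in control and 72.9 ± 5.58 CPM in Smo-KO livers (SD, n = 4), a log2 difference of 0.29 ± 0.11 (SE, edgeR adjusted p = 0.281, exact permutation p = 0.0571). Control and Smo-KO means were 8.0 and 7.9 CPM for Cyp4b1, 23.9 and 24.5 CPM for Cyp4f16, 12.8 and 13.8 CPM for Cyp4f17, and 1.81 and 2.13 CPM for Cyp4f18. The 9 Cyp4f genes summed to 436 ± 62.4 CPM in control and 469 ± 46.3 CPM in Smo-KO livers (SD, n = 4), a ratio of 1.08 beside the 1.48 of the Cyp4a genes. Without Smo-KO mouse 3 the log2 ratio of the Cyp4a sum went from 0.56 to 0.24, and that of the Cyp4f sum from 0.11 to 0.13.

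Levels of different genes were compared per kilobase of annotated exon. In control livers the order was Cyp4a12a (129 ± 18.4 CPM per kb, SD, n = 4), Cyp4v3 (103 ± 3.48), Cyp4f14 (84.0 ± 14.1), Cyp4a32 (64.0 ± 21.5), Cyp4f15 (58.6 ± 14.3), Cyp4a10 (48.6 ± 11.9), Cyp4a14 (33.5 ± 2.73), and Cyp4a31 (1.77 ± 0.387). The ranges of neighbours in this order overlapped except those of Cyp4a14 (30.8 to 37.3) and Cyp4a31 (1.27 to 2.21), so that by this length only the last place was distinct. In Smo-KO livers, by the same length, Cyp4a32 had the highest level at 163 ± 84.1 CPM per kb (SD, n = 4), ahead of Cyp4a12a at 144 ± 62.0, and the ranges of both, 95.4 to 281 and 69.2 to 216, overlapped. The annotation bears on this order. The transcript model of Cyp4a32 ends with its coding sequence, so its 1536 bases are short beside the 2109 of Cyp4a10. Divided by the windows of 100 bases found in no other gene, Cyp4a12a stood first in both groups, at 209.5 CPM per kb in control livers, where its range (174 to 243) lay above that of Cyp4v3 (108 to 117), and at 235 ± 101 in Smo-KO livers (SD, n = 4). Cyp4a32 then kept rank 4 in control livers (85.9) and took rank 2 in Smo-KO livers (219 ± 113, SD, n = 4).

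**Figure D5:**
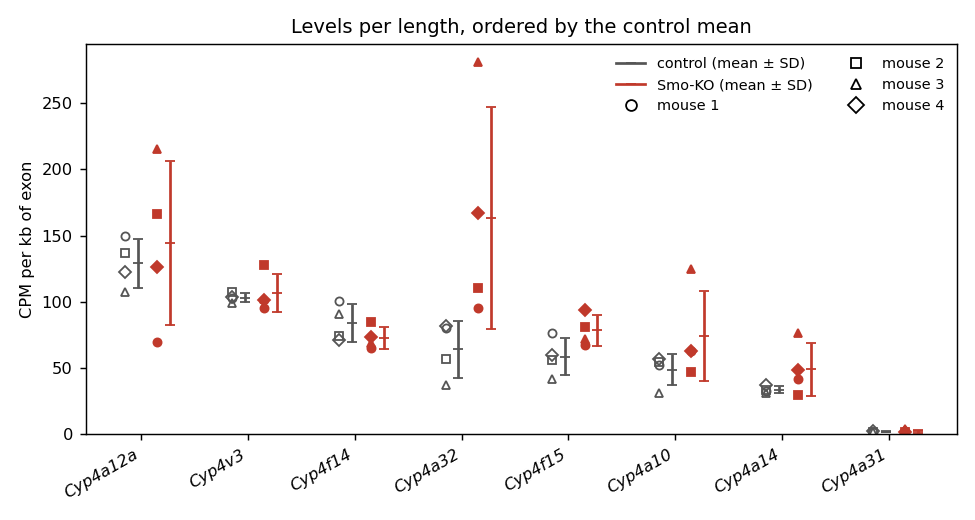
CPM per kilobase of annotated exon (y axis, from 0) of the 8 members, ordered by the control mean, in each of 4 control (open) and 4 Smo-KO (filled) livers, with mean and SD. Cyp4a32 goes from the fourth place in control livers (64.0 CPM per kb) to the first in Smo-KO livers (163 CPM per kb) by this length, though to the second by windows found in no other gene, and Cyp4a31 is last in both groups.

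The genes whose departures over the 8 livers were most like those of 3 members were listed by the root mean square (RMS) difference of log2 CPM among 9336 genes with a mean of at least 10 CPM. For Cyp4a10, whose own departures had an RMS of 0.521, these were Fmo2 (0.210), Cyp4a14 (0.227), Rab30 (0.231), Tnxb (0.232), and Ints6l (0.261). Cyp4a14 (own RMS 0.427) was most like Ints6l (0.151), Acot4 (0.181), Mcrip2 (0.186), AI506816 (0.189), and Gm15638 (0.210). Cyp4a12a (own RMS 0.450) was most like Mup3 (0.188), a secreted major urinary protein, followed by Tppp (0.230), Mcm4 (0.247), Gm17753 (0.253), and Mak16 (0.260). Mup3 measured 789, 906, 657, and 595 CPM in control mice and 485, 1119, 1095, and 785 CPM in Smo-KO mice. As with Cyp4a12a, Smo-KO mouse 1 was the lowest and mice 2 and 3 were the highest of the 8 livers. Mup3 was picked for its likeness to Cyp4a12a, so this shared order is no separate result. The values in the 8 livers share their libraries, and the median difference over all genes was 0.546, 0.457, and 0.474 for Cyp4a10, Cyp4a14, and Cyp4a12a.

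Other steps of the omega-oxidation route were read from lists of genes, each described by counts at an unadjusted edgeR p under 0.05 beside the 6.7% higher and 7.15% lower of all genes. Of 6 electron donors, 1 was higher. This was Por, P450 oxidoreductase, at 268 ± 81.4 CPM in control and 441 ± 52.4 CPM in Smo-KO livers (SD, n = 4; log2 difference 0.72 ± 0.18 SE, edgeR adjusted p = 0.146, DESeq2 adjusted p = 0.0122), and its groups did not overlap. The cytochromes b5, which pass a further electron to P450 enzymes, differed less, by 0.16 for Cyb5a and -0.20 for Cyb5b on the log2 scale. Among 10 tested alcohol and aldehyde dehydrogenases, 2 were higher and 1 was lower. Aldh3a2, the fatty aldehyde dehydrogenase, averaged 504 ± 23.8 and 616 ± 98.0 CPM (SD, n = 4; log2 difference 0.29 ± 0.11 SE, edgeR adjusted p = 0.284), and Adh7 22.7 and 30.9 CPM (0.44 ± 0.16 SE). Aldh1b1, a mitochondrial aldehyde dehydrogenase, averaged 204 ± 27.0 CPM in control and 131 ± 38.2 CPM in Smo-KO livers (SD, n = 4; -0.64 ± 0.17 SE, edgeR adjusted p = 0.165, DESeq2 adjusted p = 0.0337).

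Of 24 genes for the activation, peroxisomal import, and shortening of long-chain and dicarboxylic acids, 11 were higher and 2 were lower at that p, with a median log2 difference of 0.25. The groups did not overlap in 5 that were higher, beside 3.03% of all genes, and in 1 that was lower, beside 4.34%. DESeq2 called 4, beside 1.36% of all genes it adjusted. Summed over the list, Smo-KO mice had 9876, 12111, 12966, and 11510 CPM, and control mice 9902 to 10155 CPM. Smo-KO mouse 1 thus lay below every control liver. The smallest p-values belonged to Acaa1b, a peroxisomal thiolase, at 779 ± 33.2 and 1141 ± 176 CPM (SD, n = 4; 0.55 ± 0.11 SE, edgeR adjusted p = 0.116), Eci2, a peroxisomal enoyl-CoA isomerase (0.61 ± 0.15 SE, edgeR adjusted p = 0.146), and Abcd2, a transporter of fatty acyl-CoA into peroxisomes (0.44 ± 0.12 SE, edgeR adjusted p = 0.160). Without Smo-KO mouse 3 the count at that p was 8 higher and 1 lower, beside 4.45% of all genes that were higher in the same fit.

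Ppara, which encodes PPAR alpha, averaged 179.7 ± 29.0 CPM in control and 210.2 ± 30.7 CPM in Smo-KO livers (SD, n = 4; log2 difference 0.23 ± 0.13 SE, edgeR adjusted p = 0.463). Among 14 genes for the receptor, its dimer partners, and its cofactors, 2 were higher and 1 was lower, with a median of 0.014. The smallest p-values were those of Creb3l3, a hepatic transcription factor active with PPAR alpha in fasting (391 and 502 CPM, 0.36 ± 0.10 SE, edgeR adjusted p = 0.163, DESeq2 adjusted p = 0.0292), Rxrg, a retinoid X receptor (14.2 and 10.6 CPM, -0.43 ± 0.14 SE, edgeR adjusted p = 0.236), and Fabp1, the liver fatty acid–binding protein (1055 and 1302 CPM, 0.30 ± 0.13 SE, edgeR adjusted p = 0.331). Of 23 further PPAR alpha targets tested, 22 had a higher mean, beside the 49.9% of all genes. At an unadjusted p under 0.05, 10 were higher and 1 was lower, and the median was 0.24. Without Smo-KO mouse 3, 6 were higher and 1 was lower at that p, beside 4.45% of all genes that were higher. The lower gene, named after its values were seen, was Fgf21, a fasting hormone of the liver, at 74.1 ± 40.1 CPM in control and 26.4 ± 25.4 CPM in Smo-KO livers (SD, n = 4; -1.48 ± 0.52 SE, edgeR adjusted p = 0.247). Smo-KO mouse 1, at 64.4 CPM, was the highest of its group, and without it the log2 difference was -2.43 (edgeR adjusted p = 0.0264). That fit, without Smo-KO mouse 1, called 78 genes at an adjusted p under 0.05, where the fit with all livers called 0. Slc22a5, the carnitine transporter, and Vnn1, a pantetheinase, came first (0.59 ± 0.13 and 0.88 ± 0.22 SE, edgeR adjusted p = 0.126 and 0.146, DESeq2 adjusted p = 0.00902 and 0.0112). RefSeq promoter windows (GRCm38.p6, from 250 bases before to 50 bases after a start) could be matched for 4 of the 8 members (Cyp4a32, Cyp4f14, Cyp4f15, and Cyp4v3). None of these windows held AGGTCA, the half-site of many nuclear receptors, on either strand, where 16.3% of 32851 promoter windows of the same length did. No window could be matched for Cyp4a10 or Cyp4a14. At that share, an absence in 4 genes cannot tell them from other genes, and binding of PPAR alpha was not tested.

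Enzymes that share substrates with the Cyp4 family had mixed values. Of 12 other fatty acid oxygenases and epoxide hydrolases, 1 was higher and 2 were lower at an unadjusted p under 0.05, with a median of 0.16. Cyp2u1, an omega-hydroxylase of another P450 family, averaged 8.22 and 5.84 CPM (-0.49 ± 0.18 SE, edgeR adjusted p = 0.266), Cyp2j5, an arachidonic acid epoxygenase, 278 and 236 CPM (-0.24 ± 0.10 SE, edgeR adjusted p = 0.327), and Ephx2, the soluble epoxide hydrolase, 532 and 653 CPM (0.30 ± 0.13 SE, edgeR adjusted p = 0.329). Of 9 tested genes that make or sense the eicosanoid substrates, 0 reached that p by edgeR or an adjusted p under 0.05 by either tool. The smallest p-values there were those of the leukotriene receptor Cysltr1 (0.40 ± 0.26 SE), the leukotriene A4 hydrolase Lta4h (-0.12 ± 0.091 SE), and the cyclooxygenase Ptgs1 (-0.19 ± 0.16 SE).

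Because Cyp4a12a and Cyp4a12b are male-biased, 18 tested genes of male-biased liver expression, a list that holds Cyp4a12b itself, were read as well. Of these, 16 had a higher mean in Smo-KO livers, beside the 49.9% of all genes. Summed over the list, Smo-KO mice had 5030, 7906, 8669, and 6536 CPM, and control mice 5978, 5542, 6537, and 5184 CPM. Smo-KO mouse 1 thus lay below every control liver, and mouse 4 did not exceed the highest control liver. At an unadjusted p under 0.05, 2 genes were higher and 1 was lower, and the median was 0.19. Beside Cyp4a12b the higher gene was Cyp7b1, an oxysterol hydroxylase, at 119 ± 26.7 CPM in control and 149.5 ± 20.9 CPM in Smo-KO livers (SD, n = 4; 0.33 ± 0.15 SE, edgeR adjusted p = 0.349).

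The tissue label was checked with cell type markers. Their counts stand beside those of all genes, of which 6.7% were higher and 7.15% lower at an unadjusted edgeR p under 0.05. Groups did not overlap in 3.03% of all genes that were higher and 4.34% that were lower, and DESeq2 called 1.36% of 11967. Summed hepatocyte markers, led by Alb (16570 and 15338 CPM), were 31390 ± 1867 CPM in control and 29999 ± 844 CPM in Smo-KO livers (SD, n = 4), with 0 of 10 higher and 1 lower at an unadjusted p under 0.05 by edgeR, and 0 called by DESeq2. The lower gene, named after its values were seen, was Cps1 of the urea cycle (919 and 733 CPM), whose groups did not overlap. Of the markers of kidney, the other main site of Cyp4a expression, 8 of 10 had 0 reads in every liver (Kap, Umod, Slc34a1, Slc12a1, Slc22a6, Nphs1, Aqp2, and Cyp24a1), and the sum of the list was 0.316 and 0.172 CPM, nearly all from Lrp2. T and NK cell markers, led by Nkg7 (14.5 and 7.59 CPM), summed to 52.6 ± 7.29 CPM in control and 29.9 ± 7.99 CPM in Smo-KO livers (SD, n = 4). Of the 7 tested, 6 were lower at that p, 3 had groups that did not overlap, and DESeq2 called 3. Macrophage markers, led by Lyz2 (412 and 513 CPM), had 2 of 9 higher, both with groups that did not overlap and 1 called by DESeq2, stellate cell markers, led by Col3a1 (386 and 329.5 CPM), 1 of 10 lower, and endothelial markers, led by Clec4g (59.7 and 49.7 CPM), 1 of 7 lower, with 0 called by DESeq2 in the stellate and endothelial lists. Of 3 neutrophil, 4 B cell, and 6 cholangiocyte markers tested, 0 reached that p by edgeR or an adjusted p under 0.05 by DESeq2. Their most abundant genes were Csf3r (12.4 and 14.4 CPM), Cd79b (3.10 and 3.51 CPM), and Spp1 (126 and 154 CPM), and the neutrophil marker Ly6g was at 0 in all 8 livers. The part of these cell types in the Cyp4 values was not tested.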

How the data were processed

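Total RNA from 8 livers was sequenced from NEB Next Ultra libraries on a NovaSeq. The submitters' processing notes name fastp, STAR 2.7.5, featureCounts 2.0.1, and GRCm38. The deposited files hold raw read counts per gene symbol, not normalized, in the form that htseq-count writes, and the authors pooled no libraries. The annotation, read length, strand setting, and handling of reads that align to several genes were not given in the sources used here. The entry for reads aligned to several places was 0 in all 8 files. Entries that name no gene (reads outside genes or shared by several) held 10.1% to 12.2% of each file's total and were left out of totals and tests. In these libraries 3 reads, the limit that a count of 0 allows, were worth 0.300 to 0.366 CPM. The members and lists were chosen with earlier results of these data known.

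Counts were filtered with filterByExpr, scaled by TMM, and tested with edgeR 4.0.16 (R 4.3.3) by the quasi-likelihood test on genotype over all 8 livers, with Benjamini-Hochberg adjustment over 12977 genes and a threshold of 0.05. CPM are counts per 1e6 of the TMM-scaled total, and SE was derived from the fold change and its F statistic. Exact permutation tests were two-sided over 70 assignments of the 8 livers. DESeq2 1.42.0, RLE size factors, other filters, a replicate block, and each liver left out were alternatives, and the count of members in each of them was added after seeing the data. Replicates are separate samples by label, so p-values measure the spread between these samples. The code was tested on simulated data. Gene positions, exon lengths, and coding sequences came from GENCODE M21, aligned with Biopython 1.88 under Python 3.11.15, and figures were drawn with matplotlib 3.10.9. Likeness used log2 CPM with a prior count of 2. Named genes were Smo, the members, other Cyp4 genes with a mean of at least 1 CPM, the 3 genes of each pathway list with the smallest p (2 for PPAR alpha targets and male-biased genes), the most abundant marker and those at 0 in each cell type list, and the 5 genes most like Cyp4a10, Cyp4a14, and Cyp4a12a. Ppara and the sparse Cyp4 genes were named beside this rule, and Fgf21 and the values of Mup3 were singled out after they were seen. A gene of the male-biased list is not reported here.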

Additional observations from a re-analysis of the deposited data

Results flagged for a closer look

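In 48 groups of 4 livers, 3 had 1 liver far from the other 3, where about 2.4 are expected by chance at 1 in 20. The summed Cyp4f genes stood at 529 CPM in control mouse 1, against 402 to 406 CPM in the other control livers. Reads of Cyp4a14 over those of Cyp4a10 were 1.22 in control mouse 3, against 0.741 to 0.810. Reads of Cyp4a12b over those of Cyp4a12a were 0.0196 in control mouse 2, against 0.0144 to 0.0150. The cause of these values was not tested.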

How the results depend on the processing

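The count of genes with an adjusted p under 0.05 was 0 by edgeR, 61 without the filter on low counts, 163 by DESeq2, 8 with a replicate block, and 0 to 78 with 1 liver left out (78 without Smo-KO mouse 1, 5 without control mouse 1, 4 without Smo-KO mouse 3). Cyp4a32 passed that threshold without the filter (log2 difference 1.35, edgeR adjusted p = 0.0385) and without Smo-KO mouse 1 (1.54, edgeR adjusted p = 0.0470), and ranged from 0.96 to 1.54 over livers left out. The sign turned for Cyp4a12a without Smo-KO mouse 3 (-0.095, range to 0.40), for Cyp4a31 without the same liver (-0.078, range to 0.49), and for Cyp4v3 without Smo-KO mouse 2 (-0.048, range to 0.10). The number of members with an unadjusted p under 0.05 and a higher mean was 4 with all livers, beside 6.7% of all genes. It was 3 by DESeq2 (beside 6.44%) and 3 with the block (beside 7.85%), in both cases without Cyp4a10. With 1 liver left out it ran from 1 without control mouse 3 (beside 5.19%) to 5 without Smo-KO mouse 1 (beside 8.95%). Without Smo-KO mouse 3 it was 2 (beside 4.45%). Over livers left out, the log2 ratio of the Cyp4a12a and Cyp4a12b sum ran from -0.078 to 0.42, that of Cyp4a10, Cyp4a31, and Cyp4a32 from 0.62 to 1.16, and that of all Cyp4a genes from 0.24 (without Smo-KO mouse 3) to 0.73. Scaling by RLE or a stricter filter changed no direction among the 8 members, and the cause of these shifts was not tested. Smo passed the threshold by DESeq2 (adjusted p = 0.00613), without the filter (edgeR adjusted p = 0.0385), and without Smo-KO mouse 1 (edgeR adjusted p = 0.0264).

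Livers with the same replicate number correlated by 0.0611 to 0.187 in their deviations from the group means, against -0.205 to 0.157 for different numbers, and 5 of 8 correlated best with their own number, a hint of pairing from the data. The labels name no shared litter or day and 1 of 4 correlations was under 0.1, so the numbers were not taken to pair the livers. With the replicate block, Cyp4a32 differed by 1.26 (edgeR adjusted p = 0.150). With 4 livers a group, near copies among the Cyp4a genes, and reads of unknown length and strand setting, the split of reads between Cyp4a10, Cyp4a31, and Cyp4a32 could not be checked, and Cyp4a31 rested on 32 to 80 reads a liver.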
